A study of Homo sapiens with 24 samples.

Results

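The genes described here were 10 genes listed by symbol as WNT inhibitors silenced in colorectal cancer: the secreted frizzled-related proteins SFRP1, SFRP2, SFRP4 and SFRP5, the WNT inhibitory factor WIF1, the dickkopf genes DKK1, DKK2, DKK3 and DKK4, and SOX17. The symbols were matched to the gene identifiers of the count tables, and all 10 were found among 58735 genes. SOX17 encodes a transcription factor and not a secreted protein, so 9 of the 10 encode secreted antagonists. RNA-seq had been performed on HCT116, a human colorectal carcinoma line, in 8 groups of 3 libraries. Every line carries a doxycycline-inducible OsTIR1, the plant F-box protein that binds auxin and directs proteins with an auxin-inducible degron (AID) to degradation. WT cells have OsTIR1 and no tagged protein, UHRF1-AID cells carry the tag with mClover at the C-terminus of UHRF1, DNMT1-AID cells carry it with mRuby2 at the N-terminus of DNMT1, and UHRF1-AID/DNMT1-AID cells carry both. Each line was sampled at day 0, before auxin, and at day 4 of auxin, which was given together with doxycycline after 1 day of doxycycline with auxinole, an inhibitor of OsTIR1. The labels do not say whether day 0 cells had received doxycycline or auxinole. By the study's methods, biological replicates of the AID lines came from 3 separate clones of each construct. The labels tie no library to a clone and name no source for the WT replicates, so p-values measure the spread between these libraries, which for WT may be technical. UHRF1 and DNMT1 together copy the methylation of CG sites onto newly made DNA. All 8 groups are lines of 1 cell type grown in culture.

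WNT proteins bind Frizzled receptors and the co-receptors LRP5 and LRP6 at the cell surface, which spares beta-catenin from destruction and lets it act with TCF/LEF factors on target genes. SFRP proteins and WIF1 bind WNT proteins outside the cell, and DKK1, DKK2 and DKK4 bind LRP5 and LRP6, whereas the part of DKK3 in the pathway is less clear. SOX17 can bind beta-catenin and TCF/LEF factors in the nucleus. In colorectal cancer these genes are known for promoter methylation, and HCT116 carries a mutation that stabilises beta-catenin, which acts downstream of the secreted antagonists.

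The promoter bases of a highly read gene and of a nearly silent one are shown because UHRF1 and DNMT1 act at CG dinucleotides. The 250 bases upstream of the RefSeq start are written on the gene's strand, with each CG in capitals. DKK1 is at chr10:52314031-52314280 of GRCh38.p14 on the plus strand and SFRP5 at chr10:97772000-97772249 on the minus strand.
DKK1: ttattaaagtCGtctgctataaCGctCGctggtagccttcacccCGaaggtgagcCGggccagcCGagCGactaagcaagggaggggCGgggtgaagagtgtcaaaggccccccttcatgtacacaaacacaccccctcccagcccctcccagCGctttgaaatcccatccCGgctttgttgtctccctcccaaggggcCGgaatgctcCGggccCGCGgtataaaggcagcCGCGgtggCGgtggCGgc
SFRP5: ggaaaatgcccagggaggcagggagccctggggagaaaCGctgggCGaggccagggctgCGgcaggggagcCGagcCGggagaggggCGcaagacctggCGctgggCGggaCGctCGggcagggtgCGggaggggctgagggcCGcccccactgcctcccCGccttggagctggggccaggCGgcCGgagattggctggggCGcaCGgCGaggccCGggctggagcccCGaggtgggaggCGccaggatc
The motif CG, which reads the same on both strands, occurred 18 times upstream of DKK1 and 21 times upstream of SFRP5. Of 35116 RefSeq promoters in the same window, 36.8% had at least 18 and 30.2% at least 21, the median was 11, and 93.9% had at least 1. For SFRP2, SFRP4 and WIF1 the counts were 11, 17 and 27, but there the RefSeq start lies inside the gene as the count tables give it, so these bases are not printed. No methylation was measured in these libraries.

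The libraries held between 15824804 and 25073821 counts on genes, so that 3 counts, used as the floor of detection, were worth 0.121 to 0.195 CPM (counts scaled to library size, with TMM factors over all 24 libraries). Floors and counting intervals cover counting error only. The headers of the count tables place 15 libraries, all 12 of day 0 with the 3 of UHRF1-AID at day 4, in 1 alignment folder and the remaining 9 of day 4 in another, and only those 9 held ERCC spike-in counts. UHRF1-AID against WT at day 4, and day 4 against day 0 in the other lines, therefore compare libraries of different folders, and in these comparisons folder and group cannot be told apart. UHRF1-AID day 4 against day 0, and DNMT1-AID or UHRF1-AID/DNMT1-AID against WT at day 4, lie within a folder. UHRF1 transcripts ranged from 17.5 to 33.7 CPM in WT and from 34.95 to 82.9 CPM in UHRF1-AID cells at day 4, and DNMT1 transcripts from 23.7 to 44.9 CPM in WT and from 13.1 to 16.5 CPM in DNMT1-AID cells, but the degron acts on the protein and these levels do not check its removal. Of 10 colon epithelium markers, 6 to 10 had counts in each group, with a summed level of 3953 to 8181 CPM. The third UHRF1-AID/DNMT1-AID library at day 0 stood apart. Its sum was 81.9 CPM over 440 genes chosen for low counts in WT and a higher call at day 4 with both tags. Other day 0 libraries of the tagged lines summed to between 6.74 and 23.4 CPM. WT libraries of day 0, at 6.42 to 7.37 CPM, may be low because of that choice and are not a free comparison.

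Among the 10 genes, DKK1 was read at a high level in every group, DKK4 and SFRP1 rose from near 0 after 4 days of auxin in both lines that lose UHRF1, and DKK3 was low throughout. The 6 remaining genes, SFRP2, SFRP4, SFRP5, WIF1, DKK2 and SOX17, had between 6 and 14 counts each over all 24 libraries. In edgeR's quasi-likelihood test, a call required that the adjusted p be below 0.05 and the log2 fold change exceed 1 in size. Against WT at day 4, 4 of the 10 were tested in UHRF1-AID cells and 3 called, where 6.99% of 13958 genes tested were called. In UHRF1-AID/DNMT1-AID cells 4 were tested and 3 called, where 11.7% of 14219 were called. In each line the called genes were SFRP1 and DKK4, which were higher (5.77% and 9.21% of all genes), and DKK1, which was lower (1.22% and 2.49%). With 0 counts in WT at day 4, SFRP1 and DKK4 passed the count filter only through the lines where they were high. The share of the 10 genes called was therefore not compared with that of all genes. In DNMT1-AID cells only DKK1 had the counts to be tested and 0 of the 10 were called, while 2.57% of 13582 genes were called, 2.29% higher and 0.28% lower. The comparisons share the WT libraries. At day 0, only DKK1 could be tested and it was called in no line. The share of all genes called at day 0 was 0% for UHRF1-AID (0 by edgeR, 512 at an unadjusted p under 0.05 and 7 by DESeq2), 0.00723% for DNMT1-AID and 1.31% for UHRF1-AID/DNMT1-AID.

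DKK4 (ENSG00000104371, chromosome 8, 42374068 to 42377232, minus strand) encodes a ligand of LRP5 and LRP6 that blocks WNT signalling and is itself a known target of beta-catenin and TCF. Counts in WT cells at day 4 were 0 in all 3 libraries. In UHRF1-AID cells at day 4 they were 598, 243 and 964, or 29.1, 12.85 and 44.7 CPM. Those of UHRF1-AID/DNMT1-AID cells were 561, 551 and 448, or 34.5, 34.9 and 26.7 CPM. All 6 libraries of both lines lay far above WT, the UHRF1-AID libraries spread more widely than the UHRF1-AID/DNMT1-AID libraries, and those of the compound line fell within the range of the UHRF1-AID line. DKK4 had 40, 5 and 20 counts in DNMT1-AID cells at day 4, or 2.35, 0.302 and 1.30 CPM, so each DNMT1-AID library lay between WT and the lines that lose UHRF1.

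Taking 3 counts per library as the floor for WT, mean DKK4 in UHRF1-AID cells exceeded it at least 157-fold (28.9 ± 15.9 CPM, SD, n = 3, adjusted p = 0.00372 from edgeR). For UHRF1-AID/DNMT1-AID the mean of 32.0 ± 4.6 CPM (SD, n = 3) was at least 174-fold higher (adjusted p = 6.91e-14 from edgeR). Without UHRF1-AID replicate 1 the call in UHRF1-AID cells was lost, with an adjusted p of 0.109 from edgeR. In DNMT1-AID cells DKK4 was at least 7.15-fold higher than WT (1.32 ± 1.02 CPM, SD, n = 3), with replicates that did not overlap those of WT, but it fell under the count filter of the test. In the 7 alternative fits that did test it, 4 called it, with adjusted p between 2.66e-09 and 0.109 from edgeR or DESeq2. Of the fits without a DNMT1-AID library, only that without replicate 2, the lowest, tested DKK4, so which fits tested it depended in part on its own counts. Between lines at day 4, DKK4 was higher in UHRF1-AID than in DNMT1-AID cells, with a log2 fold change of 4.40 (SE 0.64, adjusted p = 0.00625), and higher in UHRF1-AID/DNMT1-AID than in DNMT1-AID cells by 4.59 (SE 0.45, adjusted p = 0.00115). The first of these calls was lost when no filter on low counts was used (adjusted p = 0.0581). UHRF1-AID/DNMT1-AID and UHRF1-AID cells differed by 0.19 (SE 0.40, adjusted p = 0.776), less than the spread between replicates.

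Before auxin, DKK4 was read at 0 to 5 counts in 11 of the 12 libraries. The exception was the third UHRF1-AID/DNMT1-AID library, with 33 counts (1.44 CPM), the library that stood apart above, while the other two had 1 and 2. From day 0 to day 4 in UHRF1-AID cells, within 1 alignment folder, the summed DKK4 counts went from 4 to 1805, a depth-corrected ratio of 475 (95% counting interval 185 to 1745, adjusted p = 9.40e-05 from edgeR). In UHRF1-AID/DNMT1-AID cells the log2 fold change was 5.96 (SE 0.72, adjusted p = 0.00177 from edgeR), and 8.83 without UHRF1-AID/DNMT1-AID replicate 3 of day 0. In DNMT1-AID cells the counts summed to 10 at day 0 and 65 at day 4, a ratio of 7.92 (counting interval 4.04 to 17.3). DKK4 was under the count filter there. The 7 alternative fits that tested it called it, with adjusted p between 3.58e-05 and 0.0442 from edgeR or DESeq2 and log2 fold changes between 2.67 and 3.42. Of the fits without a DNMT1-AID library of day 4, only that without replicate 2, the lowest, tested DKK4. Which fits tested it thus depended in part on its own counts, and these calls add no separate evidence. In WT cells DKK4 went from 3 summed counts to 0, which is within the floor at both times.

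SFRP1 (ENSG00000104332, chromosome 8, 41261958 to 41309497, minus strand) encodes a secreted protein with a Frizzled-like domain that binds WNT proteins. WT cells at day 4 had 0 counts in all 3 libraries. UHRF1-AID cells had 49, 24 and 34 counts at day 4, or 2.39, 1.27 and 1.58 CPM. UHRF1-AID/DNMT1-AID cells had 72, 37 and 68, or 4.42, 2.34 and 4.05 CPM. Both lines stood clear of WT and of DNMT1-AID cells, which had 0, 1 and 3 counts, while the ranges of the 2 lines overlapped slightly. Mean SFRP1 was at least 9.48-fold higher than WT in UHRF1-AID cells (1.75 ± 0.578 CPM, SD, n = 3, adjusted p = 0.00144 from edgeR). In UHRF1-AID/DNMT1-AID cells it was at least 19.6-fold higher (3.60 ± 1.11 CPM, SD, n = 3, adjusted p = 7.88e-08 from edgeR). Both calls were kept in all 12 alternative fits that tested the gene. SFRP1 in DNMT1-AID cells was at or under the floor in each library, as in WT, so no fold is given.

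At day 0 SFRP1 had no count in 11 libraries and 2 counts in the third UHRF1-AID/DNMT1-AID library. It rose from 0 to 107 summed counts in UHRF1-AID cells, at least 12.3-fold (adjusted p = 0.000261 from edgeR), within 1 folder. The rise in UHRF1-AID/DNMT1-AID cells was from 2 to 177 summed counts, a ratio of 125 (counting interval 34.1 to 1040, adjusted p = 2.79e-08 from edgeR). Against DNMT1-AID cells at day 4, with 4 summed counts, the ratio was 21.5 in UHRF1-AID cells (counting interval 8.15 to 80.3, adjusted p = 0.00532 from edgeR). In UHRF1-AID/DNMT1-AID cells, a comparison within a folder, it was 44.4 (counting interval 17.0 to 164.6, adjusted p = 4.35e-06 from edgeR). UHRF1-AID/DNMT1-AID cells exceeded UHRF1-AID cells by a log2 fold change of 1.09 (SE 0.34, adjusted p = 0.0496 from edgeR), a call that was lost in 7 of 13 alternative fits, with adjusted p up to 0.177. Leaving out any UHRF1-AID/DNMT1-AID library, or UHRF1-AID replicate 2 or 3, was enough to lose it, with log2 fold changes between 0.89 and 1.36 over the fits with 1 library left out. Of all genes, 5.31% were called between UHRF1-AID and DNMT1-AID, 6.84% between UHRF1-AID/DNMT1-AID and DNMT1-AID, and 5.13% between UHRF1-AID/DNMT1-AID and UHRF1-AID cells. Of the 10 genes, 4, 3 and 4 were tested and 2, 2 and 1 were called in these comparisons. Those with UHRF1-AID cells set libraries of different folders against each other.

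**Figure D1:**
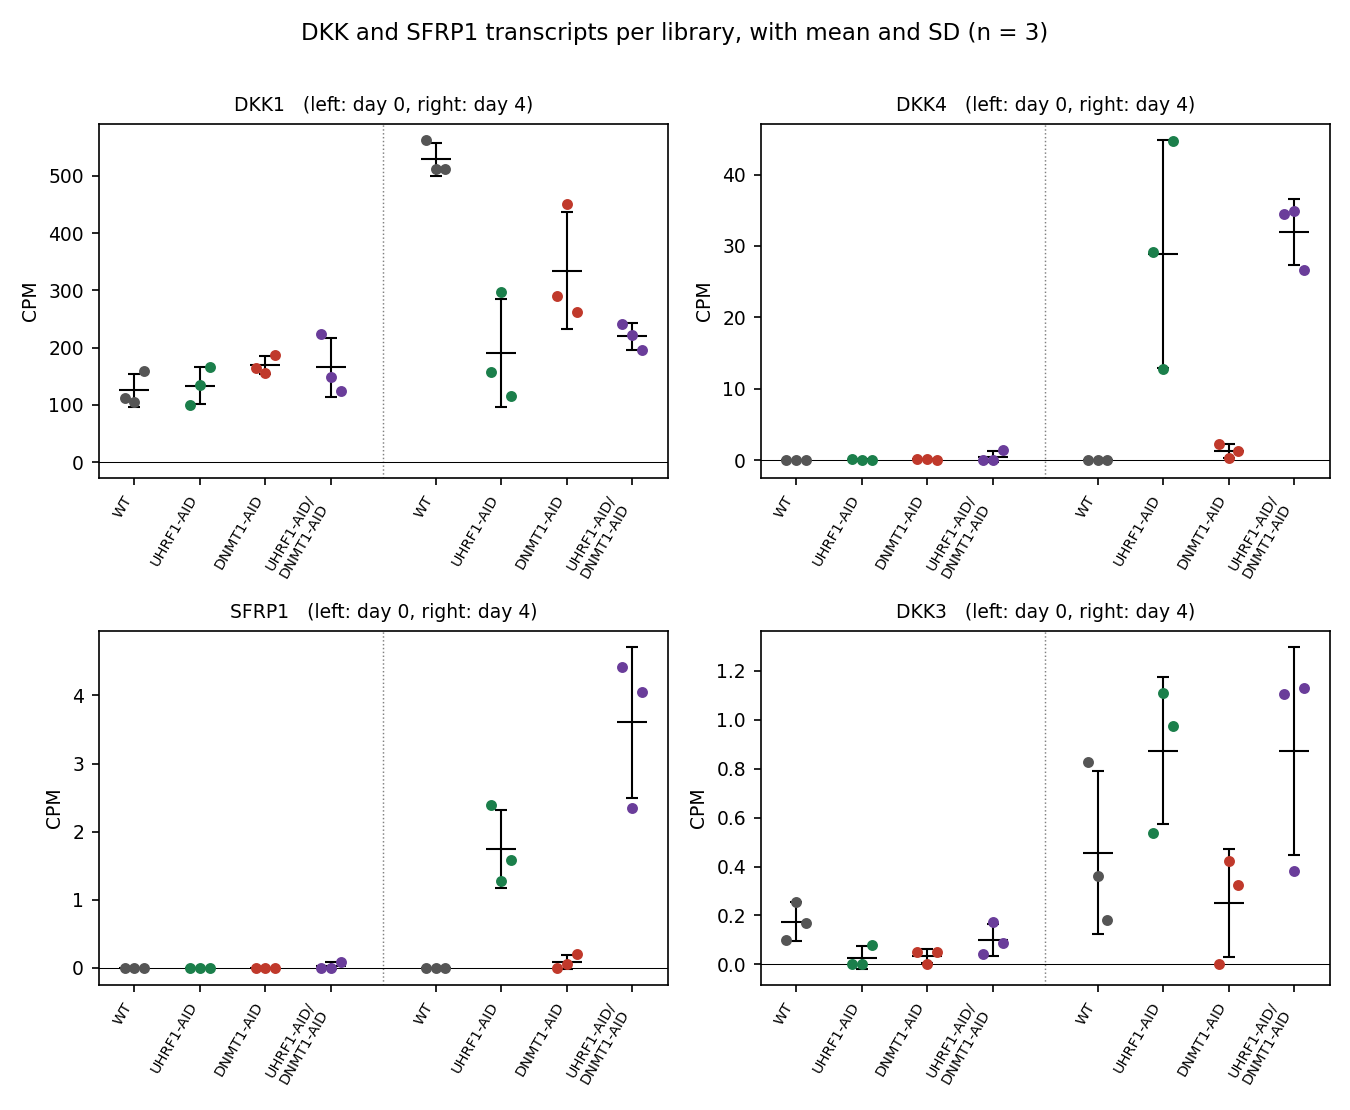
CPM of DKK1, DKK4, SFRP1 and DKK3 (one panel each, linear axes) in each library (points), with the group mean (horizontal bar) and SD (error bar, n = 3), day 0 left and day 4 right of the dotted line. DKK4 and SFRP1 are near 0 except in UHRF1-AID and UHRF1-AID/DNMT1-AID cells at day 4, whereas DKK1 is highest in WT cells at day 4.

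DKK1 (ENSG00000107984, chromosome 10, 52314296 to 52318042, plus strand) encodes the best known dickkopf antagonist of LRP5 and LRP6. It went the opposite way from DKK4 and SFRP1 when the lines were set against WT at day 4. At day 0, DKK1 was at 111.5, 105.9 and 159 CPM in WT and 100.3, 135 and 166 CPM in UHRF1-AID cells. It was at 165, 157 and 187 CPM in DNMT1-AID and 224, 149 and 124 CPM in UHRF1-AID/DNMT1-AID cells. These ranges overlapped with that of WT in every line, but in DNMT1-AID and UHRF1-AID/DNMT1-AID cells only through WT replicate 3. Over all genes that WT library differed from replicates 1 and 2 by a chi-square per degree of freedom of 54.6 and 58.5. Between replicates 1 and 2 the value was 3.71. At day 4, WT libraries had 563, 511 and 512.5 CPM. DKK1 was at 158, 297 and 116 CPM in UHRF1-AID, 289.6, 452 and 262 CPM in DNMT1-AID, and 241, 222 and 196 CPM in UHRF1-AID/DNMT1-AID cells. Every library of the 3 degron lines lay under every WT library at day 4.

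Ordered by mean, DKK1 was highest in WT at day 4 (529 ± 29.4 CPM, SD, n = 3), then in DNMT1-AID (334.5 ± 102.4), UHRF1-AID/DNMT1-AID (219.6 ± 22.9) and UHRF1-AID cells (190.3 ± 94.4) at day 4. The day 0 groups followed, with DNMT1-AID at 169.6 ± 15.7, UHRF1-AID/DNMT1-AID at 165.7 ± 51.8, UHRF1-AID at 133.8 ± 33.0 and WT at 125.4 ± 29.2 CPM. Of the neighbours in this order, only WT and DNMT1-AID at day 4, and DNMT1-AID and UHRF1-AID/DNMT1-AID at day 4, did not overlap, and neither pair was called, with log2 fold changes of -0.66 (SE 0.19, adjusted p = 0.0920 from edgeR) and -0.60 (SE 0.22, adjusted p = 0.118). Against WT at day 4, DKK1 was lower in UHRF1-AID cells by a log2 fold change of -1.48 (SE 0.33, adjusted p = 0.0234 from edgeR). In UHRF1-AID/DNMT1-AID cells, a comparison within a folder, it was -1.25 (SE 0.10, adjusted p = 4.88e-09), which was called in all 13 alternatives. The call in UHRF1-AID cells was lost with no filter on low counts (adjusted p = 0.0968), without UHRF1-AID replicate 1 (0.144) and without WT replicate 1 (0.0574), and the log2 fold change ranged from -1.996 to -1.23 over its 13 alternatives. UHRF1-AID and DNMT1-AID cells differed by -0.85 (SE 0.35, adjusted p = 0.144) at day 4, and UHRF1-AID/DNMT1-AID and UHRF1-AID cells by 0.24 (SE 0.33, adjusted p = 0.647).

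The difference at day 4 went with a rise in the untagged line. DKK1 rose in WT cells between day 0 and day 4 by a log2 fold change of 2.08 (SE 0.16, adjusted p = 8.30e-05 from edgeR), a 4.23-fold change that was called in all 13 alternatives. In WT cells 11.9% of genes were called between the days. In DNMT1-AID cells the change was 1.00 (SE 0.20, adjusted p = 0.00344 from edgeR), just under the threshold for a call, where 15.3% of genes were called. Values of 0.54 (SE 0.33, adjusted p = 0.210) in UHRF1-AID cells and 0.45 (SE 0.26, adjusted p = 0.200) in UHRF1-AID/DNMT1-AID cells were not called, where 21.9% and 26.6% of genes were. All but the UHRF1-AID value compare libraries of different folders. The day effect of each line minus that of WT was -1.69 (SE 0.29, adjusted p = 0.00304 from edgeR) in UHRF1-AID/DNMT1-AID cells. It was -1.59 (SE 0.43, adjusted p = 0.0764) in UHRF1-AID and -1.08 (SE 0.27, adjusted p = 0.151) in DNMT1-AID cells. For UHRF1-AID only the WT day effect crosses folders, so in that value folder and line cannot be told apart. Of the 10 genes, 4, 4 and 1 had the counts for this test in UHRF1-AID/DNMT1-AID, UHRF1-AID and DNMT1-AID cells. The test called DKK1 in UHRF1-AID/DNMT1-AID cells, where 5.41% of genes tested were called, and none in UHRF1-AID (2.27%) or DNMT1-AID cells (0.139%). The call in UHRF1-AID/DNMT1-AID cells was lost without replicate 2 (adjusted p = 0.118). The low share in DNMT1-AID cells depended on replicate 3. Without it, 1717 genes were called higher and 160 lower of 14414 tested. With all libraries, SFRP1, with 0 counts in WT at both times, could not be fitted in the day effect test. DKK4 was not called there (adjusted p = 0.119 for UHRF1-AID and 0.257 for UHRF1-AID/DNMT1-AID, from edgeR). PRKG1-AS1, which overlaps DKK1 on the opposite strand, held 377 counts over all libraries, against 101847 for DKK1, and whether counting used strand is not given in the sources used here.

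**Figure D2:**
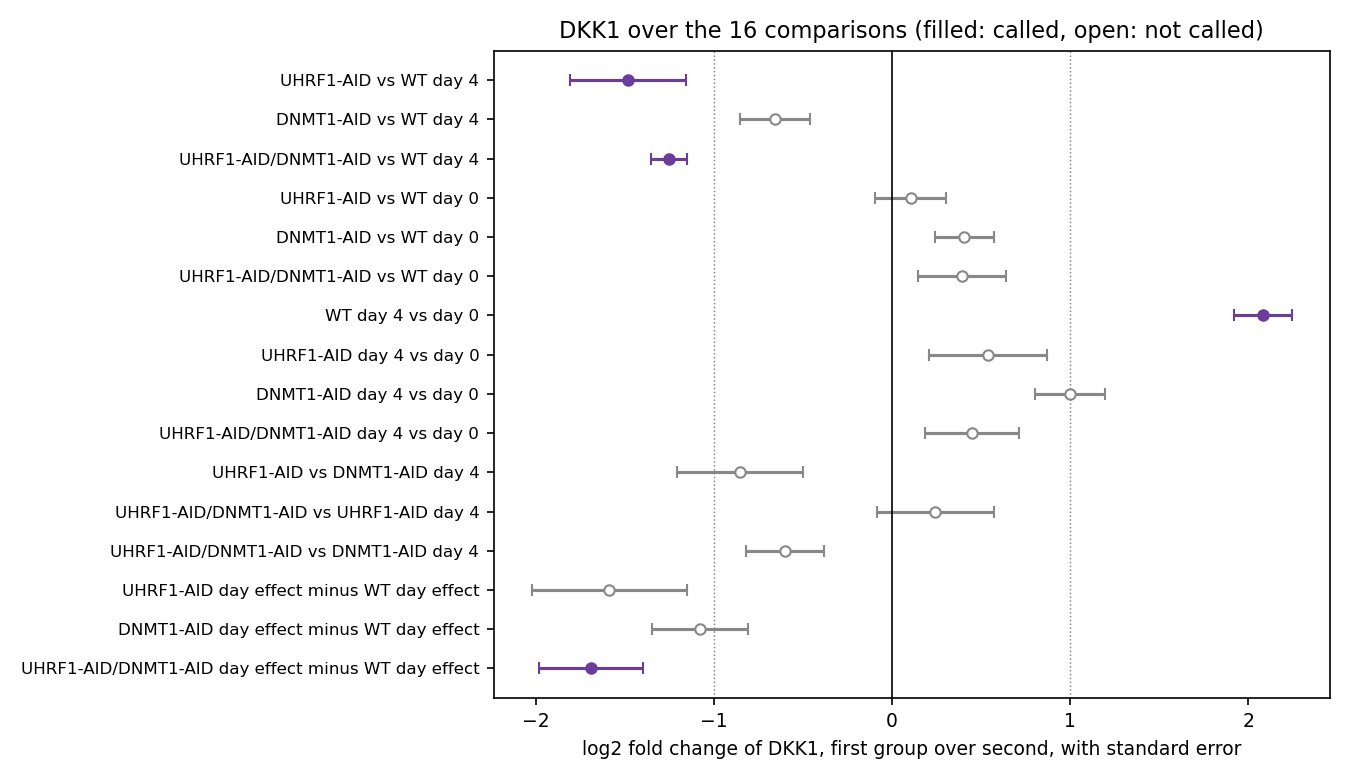
Log2 fold change of DKK1 with its standard error (horizontal axis) in the 16 comparisons (vertical axis), filled where called and open where not, with dotted lines at the fold threshold of 1. DKK1 rose by 2.08 in WT cells between day 0 and day 4, and lay under WT at day 4 in UHRF1-AID (-1.48) and UHRF1-AID/DNMT1-AID cells (-1.25).

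DKK3 (ENSG00000050165, chromosome 11, 11963106 to 12009769, minus strand), whose place in WNT signalling is debated, was at most 1.13 CPM in any library. At day 4, WT libraries had 13, 6 and 3 counts and UHRF1-AID libraries 11, 21 and 21. DNMT1-AID libraries had 0, 7 and 5, and UHRF1-AID/DNMT1-AID libraries 18, 6 and 19. The ranges of all 3 lines overlapped that of WT, and the log2 fold changes against WT were 0.93 (SE 0.56, adjusted p = 0.274 from edgeR) in UHRF1-AID and 0.96 (SE 0.56, adjusted p = 0.189) in UHRF1-AID/DNMT1-AID cells. Within UHRF1-AID cells DKK3 rose from 0, 0 and 2 counts at day 0, a ratio of 27.9 in summed counts (counting interval 7.35 to 236, adjusted p = 0.00117 from edgeR). Of the 10 genes, 4 had the counts to be tested there between the days and 3 were called, where 21.9% of all genes tested were. The day effect was called for 2 of the 3 tested in UHRF1-AID/DNMT1-AID cells (26.6% of all genes tested). It was called for 1 of 1 in WT (11.9%) and 0 of 1 in DNMT1-AID cells (15.3%). With so few of the 10 tested, their share was not compared with that of all genes. In UHRF1-AID/DNMT1-AID cells DKK3 had 1, 4 and 2 counts at day 0 and was under the filter of the test. The 7 alternative fits that tested it called it, with adjusted p between 9.63e-05 and 0.00295 from edgeR or DESeq2. Of the fits without a day 4 library, only that without replicate 2, the lowest, tested DKK3. Which fits tested it thus depended in part on its own counts, and these calls add no separate evidence. DKK3 in WT went from 10 to 22 summed counts, a ratio of 2.599 (counting interval 1.18 to 6.15). The DKK3 day effect minus that of WT was 3.19 (SE 1.22, adjusted p = 0.176 from edgeR) in UHRF1-AID and 1.67 (SE 1.05, adjusted p = 0.322) in UHRF1-AID/DNMT1-AID cells, neither of them called. Against DNMT1-AID cells at day 4, DKK3 in UHRF1-AID cells did not overlap but was not called (1.76, SE 0.71, adjusted p = 0.125).

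SFRP2, WIF1 and DKK2 were read at a few counts. SFRP2 (chromosome 4, 153780592 to 153789120, minus strand) had 1, 2 and 1 counts in the UHRF1-AID libraries of day 4, 1, 1 and 0 in those of UHRF1-AID/DNMT1-AID, and 0 in the other 18 libraries. WIF1 (chromosome 12, 65050626 to 65121566, minus strand), which binds WNT proteins through its WIF domain, had 1, 3 and 1 counts in the former, 0, 3 and 6 in the latter, and 0 elsewhere. DKK2 (chromosome 4, 106921802 to 107283806, minus strand) had 2, 2 and 1 counts in UHRF1-AID libraries at day 4, 2, 0 and 0 for UHRF1-AID/DNMT1-AID, and 1 count in a UHRF1-AID library at day 0. At day 4, counts of these 3 genes were thus seen in the lines that lose UHRF1 and not in WT or DNMT1-AID cells, but all except 1 value were at or under the floor of 3 counts, and none of the 3 passed the filter of the test. WIF1 in UHRF1-AID/DNMT1-AID cells, with 9 summed counts, was called against day 0 in 1 of 2 alternative fits (adjusted p = 0.0246 and 0.0735). A level of up to 0.195 CPM in the libraries at 0 was not excluded by the depth.

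SFRP4 (chromosome 7, 37905932 to 38025695, minus strand), SFRP5 (chromosome 10, 97766751 to 97771952, minus strand) and SOX17 (chromosome 8, 54457935 to 54460888, plus strand) had 14, 13 and 6 counts in all. SFRP4 and SFRP5 were each at 0 to 3 counts in every library, WT at day 0 included. SFRP4 overlaps EPDR1 on the opposite strand, so without strand the reads of these genes cannot be told apart. SOX17 had 3 counts in the third UHRF1-AID/DNMT1-AID library at day 0 and 3 in the first at day 4, and none in the other 22. At this depth no difference between groups was detectable for any of the 3, nor for SOX17 between lines with and without UHRF1.

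Per kilobase of summed exons, DKK1 was at 239.7 ± 13.3 CPM in WT at day 4 and at 99.6 ± 10.4 CPM in UHRF1-AID/DNMT1-AID cells. DKK4, a short transcript, reached 35.8 ± 5.14 CPM per kilobase in UHRF1-AID/DNMT1-AID and 32.3 ± 17.8 in UHRF1-AID cells, so after its rise it stayed below DKK1 in the same cells. SFRP1 reached 0.757 ± 0.233 and DKK3 0.172 ± 0.0844 CPM per kilobase in UHRF1-AID/DNMT1-AID cells (SD, n = 3 throughout). Among 12966 genes with a mean of at least 1 CPM, those most like DKK4 over the 24 libraries by Pearson's r of log2(CPM + 1) were PPP1R16B (0.982), DCAF4L1 (0.981) and LCK (0.981). For DKK1 they were HPS3 (0.873), AGPAT5 (0.871) and CLEC4OP (0.863). The 24 points share 8 groups and 2 alignment folders, and these values are descriptions. No other of the 10 genes had a mean of 1 CPM.

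Other secreted antagonists of the pathway were read from a list of 11 genes. In UHRF1-AID cells at day 4, 3 of the 6 tested were called higher than WT and 0 lower (5.77% and 1.22% of all genes). For UHRF1-AID/DNMT1-AID 4 of 6 were higher and 0 lower (9.21% and 2.49%), and for DNMT1-AID 0 of 3 were called in either direction (2.57%). IGFBP4 and SOSTDC1, with no count in WT at day 4, passed the count filter only through the lines where they were high. NOTUM, a secreted enzyme that removes the lipid of WNT proteins and is a target of beta-catenin, was the most abundant of those called. At day 4, NOTUM had 21.9, 29.97 and 31.75 CPM in WT and 146, 210.3 and 199.6 CPM in UHRF1-AID cells. It had 54.2, 22.5 and 43.9 CPM in DNMT1-AID and 287, 282 and 308 CPM in UHRF1-AID/DNMT1-AID cells. Both lines that lose UHRF1 lay above every WT and DNMT1-AID library, with log2 fold changes against WT of 2.72 (SE 0.19, adjusted p = 6.21e-05 from edgeR) and 3.41 (SE 0.13, adjusted p = 3.25e-13). In DNMT1-AID cells NOTUM overlapped WT, at 0.53 (SE 0.36, adjusted p = 0.435). IGFBP4, an IGF-binding protein that also inhibits Frizzled and LRP6, had no count in WT at day 4. DNMT1-AID libraries had 2, 2 and 11 counts of it (0.117, 0.121 and 0.714 CPM), and there it was not tested. UHRF1-AID libraries had 73, 79 and 94 counts of IGFBP4, at least 21.9-fold more than WT (adjusted p = 0.000169 from edgeR), and UHRF1-AID/DNMT1-AID libraries 89, 56 and 76, at least 24.5-fold more (adjusted p = 9.91e-09). SOSTDC1, a secreted ligand of LRP5 and LRP6, also had no count in WT at day 4. It had 12, 18 and 12 counts in UHRF1-AID libraries, at least 3.79-fold more (adjusted p = 0.00616 from edgeR), and 26, 22 and 18 for UHRF1-AID/DNMT1-AID, at least 7.36-fold more (adjusted p = 7.96e-06). SOSTDC1 also had 46 counts in the third UHRF1-AID/DNMT1-AID library at day 0, against 3 and 5 in the others, and in that line its change between the days was not called (adjusted p = 0.451 from edgeR). NBL1, also on the list, was at 151 ± 16.5 CPM in UHRF1-AID and 104 ± 11.3 CPM in WT cells at day 4 (SD, n = 3), a log2 fold change of 0.52 that was under the fold threshold.

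**Figure D3:**
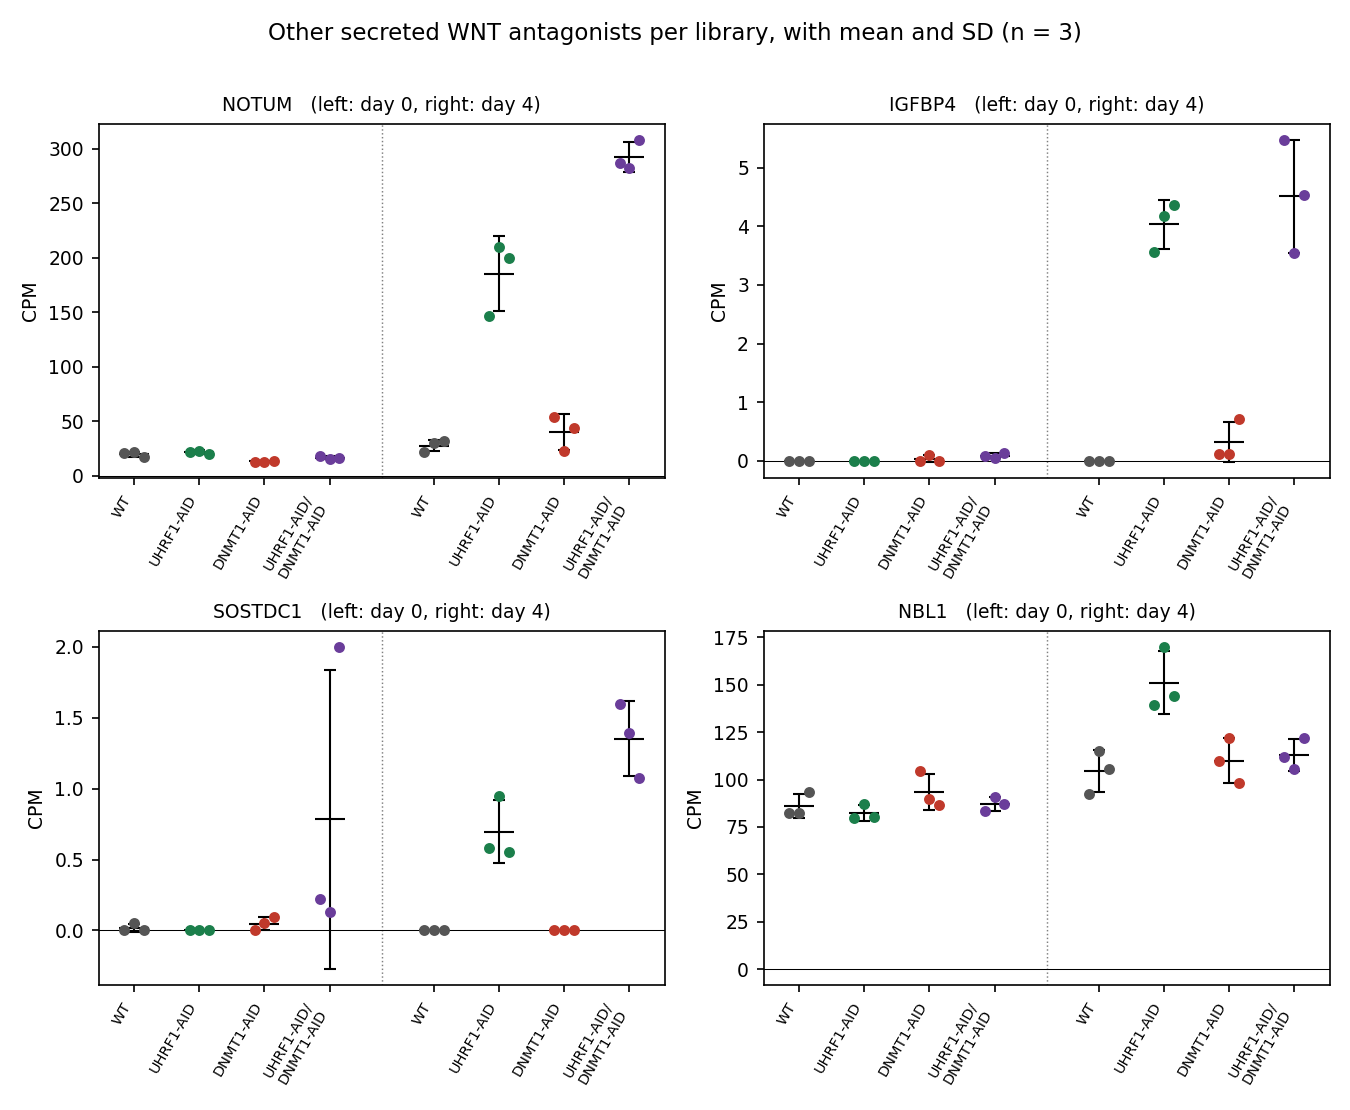
CPM of NOTUM, IGFBP4, SOSTDC1 and NBL1 (one panel each, linear axes) in each library (points), with the group mean (horizontal bar) and SD (error bar, n = 3), day 0 left and day 4 right of the dotted line. NOTUM and IGFBP4 are high in UHRF1-AID and UHRF1-AID/DNMT1-AID cells at day 4, and SOSTDC1 is also high in 1 UHRF1-AID/DNMT1-AID library at day 0.

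Other parts of the pathway were read from further lists. Of 13 WNT ligands tested, 1 was called higher than WT and 2 lower in UHRF1-AID cells at day 4. For UHRF1-AID/DNMT1-AID these were 2 and 4. In DNMT1-AID cells 0 of 12 were higher and 1, WNT7A, was lower. For this and each further list, the shares of all genes called higher and lower were 5.77% and 1.22% in UHRF1-AID cells. They were 9.21% and 2.49% in UHRF1-AID/DNMT1-AID and 2.29% and 0.28% in DNMT1-AID cells. WNT11 was higher in UHRF1-AID (log2 fold change 1.33, SE 0.30, adjusted p = 0.0157 from edgeR) and UHRF1-AID/DNMT1-AID cells (2.27, SE 0.26, adjusted p = 7.08e-07), and WNT7B lower (-1.63, SE 0.22, adjusted p = 0.00130, and -1.29, SE 0.17, adjusted p = 6.67e-06). WNT16 was lower in UHRF1-AID/DNMT1-AID cells (-1.35, SE 0.12, adjusted p = 9.20e-08). None of the 14 receptors and co-receptors, 6 membrane inhibitors or 2 secretion genes tested was called in any line against WT at day 4, and their median log2 fold changes lay between -0.40 and 0.37, against 0.00 to 0.03 over all genes. Of the 12 genes of the beta-catenin destruction complex only AXIN2, a scaffold of the complex and a feedback target, was called, with 1.10 (SE 0.19, adjusted p = 0.00470) in UHRF1-AID and 1.37 (SE 0.17, adjusted p = 2.08e-06) in UHRF1-AID/DNMT1-AID cells. AXIN2 was already higher than WT at day 0 in the latter, by 2.17 (SE 0.29, adjusted p = 0.0124 from edgeR). In UHRF1-AID cells its difference from WT at day 0 was 1.325 (SE 0.37, adjusted p = 0.942), not called but no smaller than at day 4. Between the days AXIN2 rose by 1.26 (SE 0.30) in UHRF1-AID and by 1.44 (SE 0.24) in WT cells. None of the TCF/LEF factors tested was called. RSPO4 (2.88, SE 0.42, adjusted p = 1.52e-05) and LGR6 (4.42, SE 0.79, adjusted p = 0.000155), an R-spondin and an R-spondin receptor, were higher in UHRF1-AID/DNMT1-AID cells.

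The list of 17 WNT feedback targets shares NOTUM and AXIN2 with those above. In UHRF1-AID cells at day 4, 3 of 13 tested were called higher and 2 lower than WT (5.77% and 1.22% of all genes). In DNMT1-AID cells 0 of 13 were called (2.57%). In the line with both tags, 5 of 14 were higher and 1 lower (9.21% and 2.49%). SP5, a transcription factor induced by beta-catenin, was higher by 1.71 (SE 0.28, adjusted p = 0.00371 from edgeR) in UHRF1-AID and 2.37 (SE 0.20, adjusted p = 7.63e-09) in UHRF1-AID/DNMT1-AID cells. SP5, like AXIN2, was already called higher than WT in the latter at day 0 (1.56, SE 0.32, adjusted p = 0.0429). MYC, a growth regulator and known target of the pathway, was lower by -1.07 (SE 0.14, adjusted p = 0.00130) and -1.20 (SE 0.10, adjusted p = 4.14e-09). The targets thus did not share 1 direction. In WT cells 4 of 13 tested were called between the days, as DKK1 was, where 11.9% of all genes were called. SP5 by 1.59 (SE 0.32, adjusted p = 0.00590 from edgeR) and AXIN2 by 1.44 (SE 0.24, adjusted p = 0.00244) were higher at day 4 than at day 0. MYC by -1.26 (SE 0.12, adjusted p = 0.000233) and RNF43, a ubiquitin ligase that removes Frizzled receptors, were lower.

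Relatives of SOX17 and genes of the endoderm, where SOX17 acts in development, gave few calls. Of the 3 group F SOX genes 1 was tested and not called. Of the endoderm genes, GATA4 was at least 10.5-fold higher than WT at day 4 in UHRF1-AID/DNMT1-AID cells (adjusted p = 1.14e-06 from edgeR) and FOXA1 was lower in DNMT1-AID cells (-1.24, SE 0.33, adjusted p = 0.0308). Between the days FOXA1 rose in WT cells by 1.59 (SE 0.30, adjusted p = 0.00387 from edgeR). Its change of 0.32 in DNMT1-AID cells was not called. Markers of other cell types rose with SFRP1 and DKK4 in part. The 10 fibroblast markers summed to 24.5 to 26.8 CPM in UHRF1-AID/DNMT1-AID, 9.89 to 16.3 in UHRF1-AID, 9.61 to 13.9 in DNMT1-AID and 3.32 to 8.78 CPM in WT cells at day 4, and 7 had a count in UHRF1-AID/DNMT1-AID cells against 3 in WT. DCN and LUM, matrix proteins of fibroblasts, had 13 and 14 summed counts in UHRF1-AID/DNMT1-AID cells and 0 in WT at day 4, while FAP and POSTN were at 0 in all 24 libraries. THY1 was at least 40.9-fold (adjusted p = 3.15e-10) and COL1A1 1.64 on the log2 scale (SE 0.30, adjusted p = 0.00278) higher than WT in UHRF1-AID/DNMT1-AID cells. In UHRF1-AID cells THY1 was at least 27.0-fold higher than WT (adjusted p = 0.000134 from edgeR) and COL1A1 was not called. The 7 endothelial markers summed to at most 2.85 CPM in any library. CD14, a marker of monocytes, was at least 5.43-fold higher than WT at day 4 in UHRF1-AID/DNMT1-AID cells (adjusted p = 5.43e-05 from edgeR). Among colon markers, CDX1 and CDX2 were called higher in UHRF1-AID/DNMT1-AID cells and LGALS4 with them, and CDX1 also in UHRF1-AID cells (at least 4.94-fold, adjusted p = 0.00330 from edgeR). The summed level of the 10 colon markers at day 4 went the other way. It was 5059 to 5750 CPM in UHRF1-AID/DNMT1-AID and 5669 to 6867 CPM in UHRF1-AID cells, under the 7017 to 7203 CPM of WT. In DNMT1-AID cells it was 7153 to 8181 CPM. The part of other cells in the SFRP1 and DKK4 counts was not tested.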

How the data were processed

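The authors made polyA RNA libraries with the NEBNext Ultra kit, used Trimmomatic for trimming, STAR for alignment to hg38, and featureCounts for counting per Ensembl gene. They deposited raw counts, 1 library per table. Strand and multimapping settings are not given in the sources used here. Of 58735 genes, 58207 matched a symbol. The 92 ERCC sequences entered neither the library sizes nor the tests.

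From these counts, differences were tested with edgeR 4.0.16 (R 4.3.3): filterByExpr and TMM within the groups compared, robust quasi-likelihood tests, and Benjamini-Hochberg adjustment over all genes tested. For a call, the adjusted p had to be below 0.05 and the log2 fold change above 1 in size, as in the study. The 16 comparisons were 3 lines against WT at each day, 4 day effects, 3 pairs of lines at day 4, and 3 day effects minus that of WT. Against groups with 0 counts throughout, folds are lower bounds against 3 counts per library. Ratios of summed counts carry 95% Clopper-Pearson intervals on the split of the counts. Members and gene lists were chosen with earlier results of these data known. Named genes were all members, up to 3 genes per list with the smallest p among those called in a line against WT at day 4, and the 3 genes most correlated with each member of at least 1 CPM. NBL1, WNT7A, RNF43, DCN, LUM, FAP, POSTN, PRKG1-AS1 and EPDR1 were named after their values were seen.

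Alternatives were RLE scaling, DESeq2 1.42.0, no filter, a minimum of 10 counts per library, a joint fit of all 24 libraries, a block on replicate number, no minimum fold change, and omission of each library in turn (of each replicate number for the last 3 comparisons). Same-numbered libraries were checked for pairing by the correlation of their deviations from the group means: over 13 comparisons the values lay between -0.620 and 0.231, and only in UHRF1-AID cells between the days were all 3 over 0.1. Within groups, each of the 24 replicate pairs varied beyond sampling noise (chi-square per degree of freedom 3.71 to 64.3). Spearman's rho of a gene's deviation from the mean with gene length lay between -0.270 and 0.290 over 15750 genes. Figures used Python 3.11.15, pandas 2.3.3 and matplotlib 3.10.9. Promoters came from RefSeq. The leukocyte marker list is not reported here as a whole.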

Additional observations from a re-analysis of the deposited data

Results flagged for a closer look

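The day effect of DKK1 differed between UHRF1-AID/DNMT1-AID and WT cells by -1.69 on the log2 scale (SE 0.29, adjusted p = 0.00304 from edgeR's interaction test). DKK1 rose by 2.08 in WT cells, and its change in UHRF1-AID/DNMT1-AID cells was 0.45 and not called. All 3 UHRF1-AID/DNMT1-AID libraries at day 4 lay under all 3 WT libraries. Both day effects compare libraries of different alignment folders in the same way, and the call was lost without replicate 2.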

How the results depend on the processing

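The number of the 10 genes called depended mainly on the count filter, because most of them had few counts. With at least 10 counts in every library it was 1 against WT at day 4 both for UHRF1-AID and for UHRF1-AID/DNMT1-AID, 1 for the DNMT1-AID day effect, and 0 for the day effects of the lines that lose UHRF1, for UHRF1-AID against DNMT1-AID and for UHRF1-AID/DNMT1-AID against DNMT1-AID at day 4. With no filter it was 1 in DNMT1-AID cells against WT, 1 for the DNMT1-AID day effect, 4 for that of the line with both tags, 1 for UHRF1-AID against DNMT1-AID, and 2 and 1 for the day effects of UHRF1-AID and DNMT1-AID minus that of WT. DESeq2 called 1 in DNMT1-AID cells against WT, 2 for their day effect, and for the day effects minus that of WT 3 with UHRF1-AID, 1 with DNMT1-AID and 3 with both tags. With all 24 libraries in 1 fit the counts were 2 for the DNMT1-AID day effect, 0 for UHRF1-AID/DNMT1-AID against UHRF1-AID and 1 for the UHRF1-AID day effect minus that of WT. RLE scaling gave 1 for the DNMT1-AID day effect and 0 for UHRF1-AID/DNMT1-AID against UHRF1-AID, and with no minimum fold change the DNMT1-AID day effect had 1. Leaving out each library in turn gave 1 to 3 in UHRF1-AID against WT, 0 to 1 in DNMT1-AID against WT, 1 to 2 for the DNMT1-AID day effect, 0 to 1 for UHRF1-AID/DNMT1-AID against UHRF1-AID, 0 to 1 for the DNMT1-AID and 0 to 2 for the UHRF1-AID/DNMT1-AID day effect minus that of WT. The causes were not tested beyond the number of genes each setting let through.

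Signs turned only where no difference was called. Without UHRF1-AID replicate 3 of day 0, DKK1 in UHRF1-AID against WT at day 0 was -0.067, and it ranged up to 0.28 with other libraries left out. For UHRF1-AID/DNMT1-AID against UHRF1-AID at day 4, DKK1 was -0.032 without UHRF1-AID replicate 3 (up to 0.71 with others left out) and DKK4 -0.18 without UHRF1-AID replicate 2 (up to 0.63). DKK3 was -0.15 or -0.19 when replicate 1 or 3 of the line with both tags was left out, -0.22 without UHRF1-AID replicate 1, and up to 0.40 otherwise. With the replicate number as a block, 3 genes were called in UHRF1-AID cells between the days, where the numbers paired the libraries, and 3 in UHRF1-AID against WT at day 4. The block changed no call of the 10 genes. Over all alternatives, values for single genes kept their direction and their side of the threshold 424 times, lost a call 13 times and gained one 19 times.

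Depth limited SFRP2, SFRP4, SFRP5, WIF1, DKK2 and SOX17, which are at or near the floor of 3 counts, and DKK3.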
